A study of Rattus norvegicus with 9 samples.

Results

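The genes described here mark and control the blood vessels of muscle. They are 10 genes: the growth factors Vegfa and Vegfb, their receptors Kdr and Flt1, the angiopoietins Angpt1 and Angpt2 with their receptor Tek, the junction proteins Pecam1 and Cdh5, and the endothelial nitric oxide synthase Nos3. They were chosen by name from the platform annotation, in which a gene is read from a probe set that carries only its symbol, and each of the 10 has exactly 1 such probe set. They are 10 of the 14506 genes that can be named in this way among 29215 probe sets.

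RNA from the tibialis anterior muscle (TIB), a fast muscle of the shin, of 9 male Sprague Dawley rats was labelled and read on Rat Gene 1.0 ST arrays of Affymetrix, and each rat had its own array. The rats were 10 weeks old when bought and had at least 1 week to settle in before the experiment. They formed 3 groups of 3: fed rats (Fed), rats fasted into phase 2 (P2), the long phase in which fat is the main fuel and body protein is spared, and rats fasted into phase 3 (P3), the late phase in which protein loss accelerates. As far as the labels say, the groups differ in feeding state alone, and the comparisons ask how the vessel genes of muscle respond to each phase.

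Capillaries are lined by endothelial cells and wrapped by pericytes. VEGF-A, made largely by the muscle fibres themselves, acts on the receptor VEGFR2, encoded by Kdr, to keep endothelial cells alive and to let new capillaries sprout, while VEGFR1, encoded by Flt1, mostly holds the ligand back. Angiopoietin 1, from pericytes and other cells around the vessel, quiets the endothelium through the receptor TIE2, encoded by Tek, and angiopoietin 2, released by endothelial cells, competes with it and loosens the vessel wall.

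The deposited values are log2 intensities, on which a difference of 1 is a 2-fold change. Array medians lay between 5.80 and 5.90, and rats of the same group correlated with a Pearson's r of at least 0.987 over all probe sets, which are no replicates of each other. Muscle fibre markers such as Acta1 and Ckm averaged 12.6 to 13.1 in every rat, which fits the labelled tissue, and the 25 further endothelial markers measured here averaged 7.35 to 7.98. In the P2 group, the rat P2 1 held the highest value of its group for 42.8% and the lowest for 39.2% of all genes, the largest shares of any P2 rat, so P2 results are also given without it where it matters. Changes are log2 fold changes with their standard error from limma, fitted to all 9 arrays, and a gene is called changed when its p-value, adjusted over all 29215 probe sets by the Benjamini-Hochberg method, is under 0.05. In whole muscle, fewer cells of a type and less RNA per cell cannot be told apart.

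In P3, Vegfa, Vegfb and Angpt1 fell against Fed, Pecam1 and Angpt2 rose, and Kdr, Flt1, Tek, Cdh5 and Nos3 did not pass the test. In P2, Vegfa and Angpt1 fell and no member rose. Between P2 and P3, Vegfa alone among the 10 was called, and it fell further. Read against the whole table, 5 of the 10 members were called in P3 versus Fed, where 29.2% of all probe sets were (15.8% higher and 13.4% lower), 2 of 10 in P2 versus Fed against 9.28% (5.13% higher and 4.15% lower), and 1 of 10 in P3 versus P2 against 16% (8.5% higher and 7.52% lower). The members did not shift together: their median log2 change was 0.01 for P2 against Fed, -0.03 for P3 against Fed and -0.02 for P3 against P2, beside 0.01, 0.00 and -0.01 over all probe sets. P2 versus Fed and P3 versus Fed use the same 3 fed rats.

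**Figure D1:**
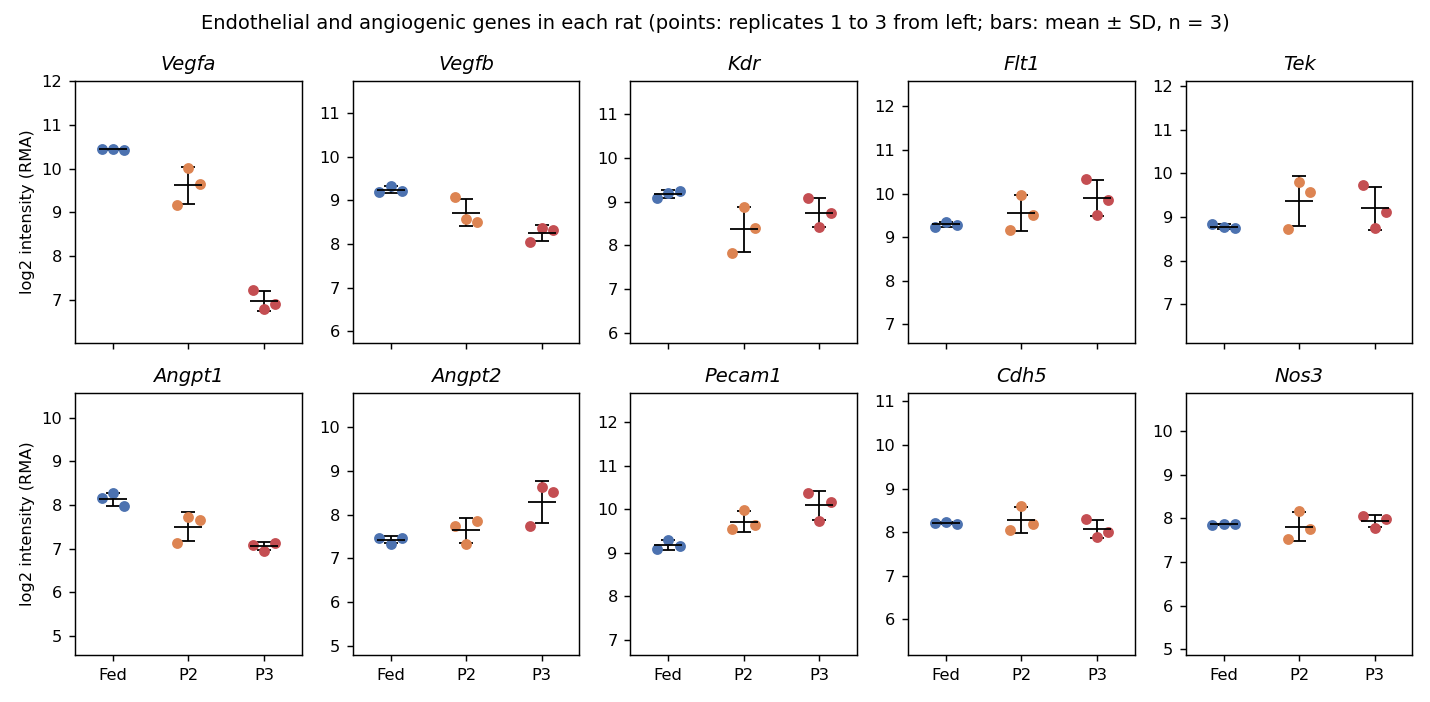
Log2 intensity of the 10 genes in each of the 9 rats, with 1 panel per gene and every axis spanning the same number of log2 units. Points are rats, horizontal bars group means and whiskers SD. The Vegfa points of P3 lie between 6.78 and 7.21, below all others, while the Cdh5 and Nos3 points of the groups overlap.

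**Figure D2:**
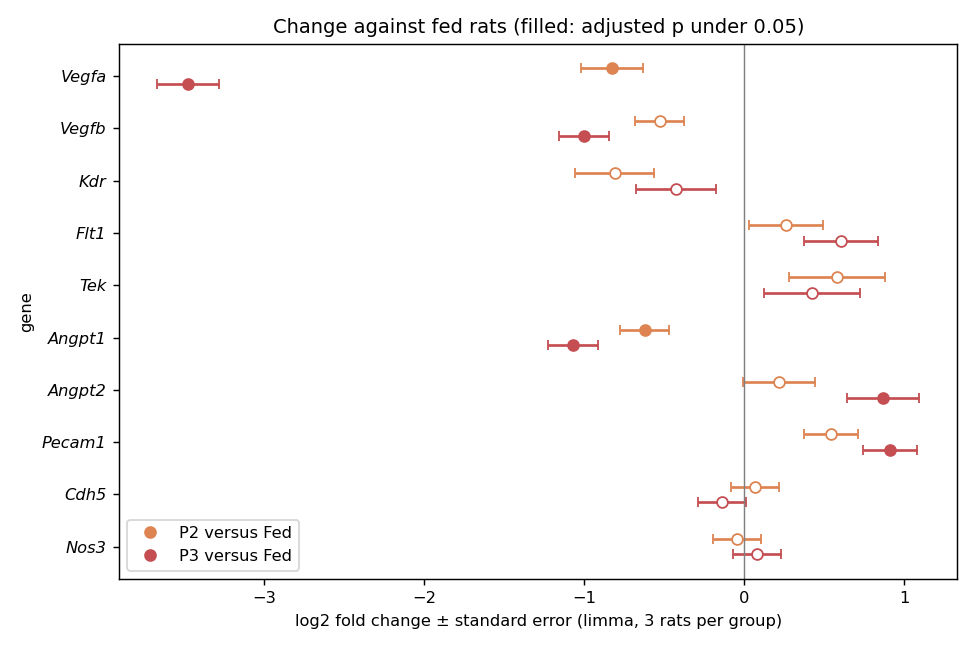
Log2 fold change against fed rats with its standard error for P2 and P3, where filled symbols passed an adjusted p of 0.05. Vegfa in P3, at -3.48, is the most distant point, and Kdr, Flt1, Tek, Cdh5 and Nos3 have open symbols in both comparisons.

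Vegfa showed the most pronounced response. Its log2 value was 10.46, 10.44 and 10.44 in the fed rats, 9.18, 10.02 and 9.65 in P2, and 7.21, 6.78 and 6.91 in P3. The fed rats were nearly equal, the P2 rats were spread below them, and the P3 rats lay far below both with no overlap between any groups. Vegfa mRNA levels fell by 0.83 ± 0.19 in P2 (adjusted p = 0.0295) and fell by 3.48 ± 0.19 in P3 (adjusted p = 2.62e-06), an 11.1-fold decrease that left 8.98% of the fed level. Of the step from Fed to P3, most came after P2, since P3 was lower than P2 by 6.27-fold (log2 change -2.65 ± 0.19, adjusted p = 3.98e-05). Among 14506 genes ordered by their change in P3 versus Fed, Vegfa stood 18th from the most reduced. The P3 call was kept without each of the 9 arrays in turn, with adjusted p from 1.48e-06 to 4.62e-05. The P2 call held without P2 1 but was lost without Fed 1, Fed 2, Fed 3, P2 3 or P3 3, with adjusted p up to 0.0926, although the log2 change stayed between -1.03 and -0.61. The probes of the array lie along the whole transcript, so splice forms of Vegfa were not told apart.

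Vegfb encodes VEGF-B, a ligand of VEGFR1 but not of VEGFR2, known in muscle for its link to fatty acid uptake and expressed with mitochondrial genes. Its values were 9.19, 9.34 and 9.20 in Fed, 9.07, 8.58 and 8.50 in P2, and 8.03, 8.37 and 8.33 in P3. Every P2 rat lay below every fed rat, and every P3 rat below every P2 rat. In P3, Vegfb fell by 1.00 ± 0.15 (adjusted p = 0.00102), 2.00-fold. The P2 difference was -0.53 ± 0.15 and missed the threshold (adjusted p = 0.0687), but without P2 1, the P2 rat nearest to Fed, it was -0.71 with an adjusted p of 0.00759.

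The fall of the 2 ligands was unequal. The within-rat difference of Vegfa minus Vegfb averaged 1.20 ± 0.09 in Fed, 0.90 ± 0.70 in P2 and -1.28 ± 0.40 in P3 (SD, n = 3). Only its change carries meaning, because 2 probe sets differ in brightness for reasons of their own. Its change was -2.48 in P3 versus Fed and -2.18 in P3 versus P2, without overlap, each with an exact two-sided permutation p of 0.1, the smallest that 3 against 3 rats allow. Between P2 and Fed it differed by -0.30 (exact permutation p = 0.8), and without P2 1 this became 0.10.

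To show the regions from which these ligands are transcribed, the 250 bases before each RefSeq start (GRCr8) are printed 5′ to 3′ in the direction of the gene. Of the members, 5 have an entry, Vegfa with 2 starts that lie 7424 bases apart, and Angpt1, Angpt2, Tek, Pecam1 and Cdh5 are only named. Capitals mark a GC box (GGGCGG, the motif of SP1 and related factors) or the site AAGGTCA of the estrogen-related receptors, on either strand.
Vegfa, first start, chr9:22452604-22452853, plus strand: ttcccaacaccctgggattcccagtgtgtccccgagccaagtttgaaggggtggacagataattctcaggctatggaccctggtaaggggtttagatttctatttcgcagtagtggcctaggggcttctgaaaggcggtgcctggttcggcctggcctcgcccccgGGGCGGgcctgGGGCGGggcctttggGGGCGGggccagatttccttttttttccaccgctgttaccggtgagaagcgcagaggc
Vegfa, second start, chr9:22460028-22460277, plus strand: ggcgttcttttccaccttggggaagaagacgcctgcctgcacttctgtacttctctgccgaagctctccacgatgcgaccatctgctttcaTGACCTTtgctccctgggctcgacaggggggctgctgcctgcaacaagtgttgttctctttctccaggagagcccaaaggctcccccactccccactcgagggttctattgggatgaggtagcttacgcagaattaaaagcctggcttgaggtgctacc
Vegfb, chr1:213607153-213607402, minus strand: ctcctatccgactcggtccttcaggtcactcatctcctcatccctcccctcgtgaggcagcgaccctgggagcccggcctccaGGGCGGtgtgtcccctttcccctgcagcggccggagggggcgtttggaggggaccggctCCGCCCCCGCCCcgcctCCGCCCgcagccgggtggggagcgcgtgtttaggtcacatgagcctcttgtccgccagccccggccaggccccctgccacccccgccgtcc
The first start of Vegfa is preceded by 3 GC boxes and that of Vegfb by 4, of which a pair on the opposite strand lie end to end. Among all 33469 starts of the table, 30.5% hold at least 1 GC box in this window, and the share with 3 or more was not counted. G and C make up 60.4% of the window of the first start of Vegfa and 73.2% of that of Vegfb. The median over all starts is 51.2%. The second start of Vegfa has no GC box and 1 copy of AAGGTCA on the opposite strand, a motif found before 3.99% of all starts and before none of the other 5 member starts. The hypoxia response cores were also searched, and both starts of Vegfa lack ACGTG and GCGTG in this window, which 16.6% and 25.9% of all starts hold. GCGTG, left unmarked above, occurs at 1 place before Vegfb, at 2 before Kdr and at 1 before Flt1, and ACGTG before no member start. The forkhead site TGTTTAC, held by 3.21% of all starts, was found before no member start. A match describes these letters only and does not show binding. A lack of matches holds for these 250 bases only, since sequence further upstream was not searched.

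Regulators known to act on Vegfa changed in both directions. Of 12 genes of oxygen sensing and Vegfa control, 1 rose and 1 fell in P2 versus Fed, 5 rose and 4 fell in P3 versus Fed, and 3 rose and 3 fell in P3 versus P2, with median log2 changes of -0.03, -0.04 and 0.09. Ppargc1a, the coactivator PGC-1α that drives mitochondrial genes and Vegfa in muscle, fell by 1.91 ± 0.14 in P3 (adjusted p = 1.15e-05), and Esrra, its partner among the estrogen-related receptors, fell by 1.41 ± 0.11 (adjusted p = 1.81e-05). In P2 the same genes were at -0.39 ± 0.14 and -0.41 ± 0.11, with adjusted p of 0.130 and 0.0559. The oxygen sensors that mark HIF subunits for breakdown went both ways in P3: Egln3 rose by 2.13 ± 0.17 (adjusted p = 1.63e-05), and Egln1 fell by 1.25 ± 0.11 (adjusted p = 4.05e-05). Hif3a, a HIF subunit that can oppose the others, whose fed mean of 5.72 lay below the array medians, rose by 0.48 ± 0.12 in P2 (adjusted p = 0.0378) and by 1.40 ± 0.12 in P3 (adjusted p = 2.60e-05). Hif1an, which restrains HIF activity, fell by 0.64 ± 0.12 in P2 (adjusted p = 0.0120) and fell by 0.93 ± 0.12 in P3 (adjusted p = 0.000356). The HIF subunit genes Hif1a and Epas1 did not pass the test: in P3 the log2 change was -0.10 ± 0.11 for Hif1a (adjusted p = 0.559) and -0.10 ± 0.11 for Epas1 (adjusted p = 0.567). Sp1, 1 of the 12, was looked up after its values were seen because of the GC boxes. It rose by 1.28 ± 0.15 in P3 (adjusted p = 0.000202). The list medians given above include Sp1, and so do the 5 rises over fed rats and the 3 over P2 rats.

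The remaining ligands and receptors of the VEGF family changed in both directions in P3. Of 6 genes, 1 rose and none fell in P2, and 2 rose and 1 fell in P3, with medians of 0.05 and 0.08; in P3 versus P2, 1 rose and none fell (median 0.12). Vegfd, a ligand best known for lymphatic vessels, rose by 1.18 ± 0.20 in P2 (adjusted p = 0.00666) and by 2.48 ± 0.20 in P3 (adjusted p = 1.78e-05). Its group means were 4.92 in Fed, 6.11 in P2 and 7.40 in P3, so the fed level lay below the array medians. Pgf, placental growth factor, which binds VEGFR1, rose by 0.91 ± 0.17 in P3 (adjusted p = 0.00350), and Nrp2, a co-receptor, fell by 0.45 ± 0.13 (adjusted p = 0.0281). Nrp1, the co-receptor of VEGFR2, was at -0.60 ± 0.24 in P2 and -0.52 ± 0.24 in P3 and passed in neither (adjusted p = 0.171 and 0.139).

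Neither of the VEGF receptors among the members passed the test in any comparison. Kdr values were 9.08, 9.20 and 9.25 in Fed, 7.83, 8.87 and 8.40 in P2, and 9.09, 8.42 and 8.74 in P3. All P2 rats lay below all fed rats, whereas P3 1 overlapped with Fed. The change was -0.81 ± 0.25 in P2 (adjusted p = 0.0817, 95% confidence interval -1.37 to -0.25) and -0.43 ± 0.25 in P3 (adjusted p = 0.251, interval -0.99 to 0.13). Without P2 2, the P2 rat with the highest value, Kdr in P2 was at -1.06 with an adjusted p of 0.0257, and without P2 1, the rat with the lowest value, at -0.54 with an adjusted p of 0.136. In P3 it ranged from -0.60 to -0.26 with an array left out and passed in no case. Flt1 values were 9.23, 9.36 and 9.29 in Fed, 9.17, 9.98 and 9.51 in P2, and 10.33, 9.50 and 9.85 in P3. Here the P3 rats all lay above the fed rats, and the change was 0.60 ± 0.23 (adjusted p = 0.0870, interval 0.08 to 1.13), against 0.26 ± 0.23 in P2 (adjusted p = 0.587). Leaving out P2 2 or P3 2 brought Flt1 in P3 under the threshold, with adjusted p of 0.04996 and 0.0373, while without P3 1 the change was 0.39 with an adjusted p of 0.261.

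The angiopoietins moved in opposite directions. Angpt1 was at 8.15, 8.26 and 7.96 in Fed, 7.13, 7.72 and 7.66 in P2, and 7.09, 6.95 and 7.13 in P3, with no overlap between Fed and either fasted group. It fell by 0.62 ± 0.15 in P2 (adjusted p = 0.0375) and fell by 1.07 ± 0.15 in P3 (adjusted p = 0.000688), which left 47.6% of the fed level. The P3 call held without any of the 9 arrays, while that of P2 held only without P2 1 or P2 2 and was lost in the other 7 cases, with adjusted p up to 0.134. Angpt2 was at 7.47, 7.33 and 7.48 in Fed, 7.74, 7.32 and 7.86 in P2, and 7.74, 8.63 and 8.52 in P3, where P3 1 was much closer to Fed than the others. It rose by 0.87 ± 0.23 in P3 (adjusted p = 0.0181), 1.82-fold, and was at 0.22 ± 0.23 in P2 (adjusted p = 0.655). The P3 call of Angpt2 was lost without Fed 2, P3 2 or P3 3, with adjusted p of 0.0650, 0.0669 and 0.0691, and over the 20 alternatives fitted with limma its adjusted p ranged from 0.001004 to 0.0691.

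Within each rat, the difference Angpt2 minus Angpt1 was -0.68, -0.93 and -0.49 in Fed, 0.61, -0.40 and 0.21 in P2, and 0.65, 1.68 and 1.39 in P3. The groups did not overlap, and the mean was higher at each step from Fed to P2 and P3, going from -0.70 ± 0.22 through 0.14 ± 0.51 to 1.24 ± 0.53 (SD, n = 3). The change was 0.84 in P2 versus Fed, 1.94 in P3 versus Fed and 1.10 in P3 versus P2, each with an exact permutation p of 0.1, the smallest possible, and 0.12 after adjustment over the 6 differences tested. As before, the sign of the difference itself is not a comparison of mRNA amounts between the genes.

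**Figure D3:**
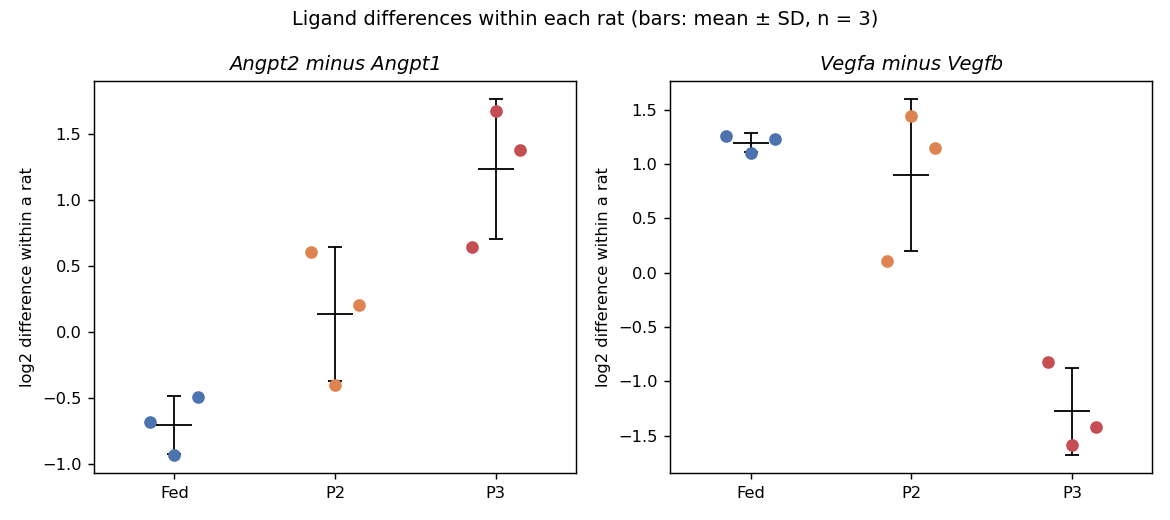
Log2 difference within each rat of Angpt2 minus Angpt1 and of Vegfa minus Vegfb, by group. Points are rats and bars mean ± SD of 3. Angpt2 minus Angpt1 is separated in all 3 groups, and Vegfa minus Vegfb drops to -1.28 in P3.

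Their receptor Tek was at 8.84, 8.76 and 8.74 in Fed, 8.72, 9.81 and 9.57 in P2, and 9.74, 8.76 and 9.12 in P3. In both fasted groups 1 rat was level with the fed rats and the others were higher, so the groups overlapped. The change was 0.58 ± 0.30 in P2 (adjusted p = 0.308, interval -0.10 to 1.26) and 0.42 ± 0.30 in P3 (adjusted p = 0.353, interval -0.26 to 1.10). Single rats moved both values: in P2 Tek was at 0.91 without P2 1 (adjusted p = 0.0511) and at 0.36 without P2 2 (adjusted p = 0.599), and in P3 at 0.16 without P3 1 (adjusted p = 0.767) and at 0.65 without P3 2 (adjusted p = 0.188). Of 2 further genes of this system, Angpt4 fell by 0.31 ± 0.10 in P3 to a mean of 5.65, below the array medians (adjusted p = 0.0384), and Tie1, the orphan partner of TIE2, was at -0.44 ± 0.16 (adjusted p = 0.0690). Neither passed in P2 versus Fed or in P3 versus P2, and the medians of the pair were -0.22, -0.38 and -0.15 for P2 against Fed, P3 against Fed and P3 against P2.

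Pecam1 encodes CD31, an adhesion protein of endothelial cell contacts that platelets and leukocytes also carry. Its values were 9.09, 9.30 and 9.15 in Fed, 9.54, 9.99 and 9.63 in P2, and 10.38, 9.73 and 10.16 in P3, so that all fasted rats lay above all fed rats. It rose by 0.91 ± 0.17 in P3 (adjusted p = 0.00326), 1.88-fold, and stood 0.54 ± 0.17 above Fed in P2 without passing (adjusted p = 0.0918). With an array left out, the P2 change ranged from 0.41 to 0.63, with adjusted p from 0.0432 to 0.2385. It stayed uncalled in 8 of 9 cases. The P3 call was kept without any of the 9 arrays, with adjusted p from 0.00107 to 0.0156. Of 5 markers of platelets and red cells, none rose, and Hbb, whose close copies may share its probes, and Alas2, both of red cells, fell in P2 (log2 changes of -2.07 ± 0.16 and -0.88 ± 0.10) and in P3 (-2.14 ± 0.16 and -0.86 ± 0.10). Alas2, Gp9 and the macrophage gene Aif1 had group means of at most 5.45, below the array medians. In each group, every platelet gene of the list averaged at most 5.88, within or below the range of the array medians. A probe set at such a level may be near background. The list median was -0.20, -0.37 and -0.07 in the 3 comparisons, no gene was called in P3 versus P2, and the mean log2 level of the list ranged from 6.13 to 6.23 in Fed and from 5.41 to 5.49 in P3. The platelet genes Pf4 and Gp9 were at -0.37 ± 0.13 and -0.15 ± 0.08 in P3 (adjusted p = 0.0709 and 0.228). Of 12 macrophage markers none passed in P2 and in P3 1 rose, Cd163 by 1.40 ± 0.33, and 1 was lower, Aif1, which fell by 0.40 ± 0.11. None passed in P3 versus P2, the medians were -0.01, -0.21 and -0.14, and the mean level ranged from 6.42 to 7.08 in Fed, 6.49 to 6.88 in P2 and 6.28 to 6.87 in P3.

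Cdh5, which encodes VE-cadherin, the adhesion protein found nearly exclusively in endothelial junctions, was at 8.22, 8.22 and 8.20 in Fed, 8.04, 8.60 and 8.20 in P2, and 8.31, 7.90 and 8.002 in P3. The fed rats fell within the range of both fasted groups. The change was 0.07 ± 0.15 in P2 (interval -0.27 to 0.41) and -0.14 ± 0.15 in P3 (interval -0.48 to 0.20), with adjusted p of 0.848 and 0.547. Nos3, whose product makes the nitric oxide that widens vessels, was at 7.85, 7.86 and 7.87 in Fed, 7.53, 8.17 and 7.75 in P2, and 8.05, 7.79 and 7.99 in P3. Again the groups overlapped, with changes of -0.05 ± 0.15 in P2 (interval -0.38 to 0.29) and 0.08 ± 0.15 in P3 (interval -0.26 to 0.42) and adjusted p of 0.900 and 0.748. For both genes, a 2-fold change in either direction lies outside these intervals.

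Counted by overlap, the P2 rats lay entirely above the fed rats for 1 member and below for 4, the P3 rats above the fed rats for 3 and below for 3, and the P3 rats below the P2 rats for 3. Over all probe sets, the 3 arrays of the groups did not overlap in 24.2% for P2 versus Fed, 42.4% for P3 versus Fed and 27.4% for P3 versus P2.

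The fasted rats were more spread in these genes than the fed rats. The median range of the members within a group in log2 units was 0.13 in Fed, 0.62 in P2 and 0.54 in P3, against 0.18, 0.23 and 0.21 for all genes. In P2, 8 of the 10 members had their lowest value in P2 1 and 8 their highest in P2 2. In P3, 8 were lowest in P3 2 and 7 highest in P3 1. Vegfb and Angpt2 were the members that ran the other way: Vegfb was highest in P2 1 and P3 2, and Angpt2 was lowest in P2 2 and P3 1.

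The 25 other endothelial markers were ordered in a similar way. They had their lowest value in P2 1 for 16 genes and their highest in P2 2 for 22, and in P3 23 were lowest in P3 2 and 21 highest in P3 1. Over all 14506 genes, P2 2 held the highest value for 34.8%, P3 1 for 35.8%, and P3 2 the lowest for 34.1%. Mean log2 levels of the 25 markers were 7.54 to 7.58 in the fed rats, 7.59, 7.98 and 7.68 in P2 1, P2 2 and P2 3, and 7.75, 7.35 and 7.56 in P3 1, P3 2 and P3 3. Markers of other cells of the muscle differed between the same rats. Fibro-adipogenic markers averaged 8.37, 9.18 and 8.68 in P2 1, P2 2 and P2 3 and 8.19, 7.33 and 7.53 in P3 1, P3 2 and P3 3, and pericyte and smooth muscle markers 8.56, 8.87 and 8.68 and 8.50, 8.14 and 8.47. Lymphatic markers averaged 6.57, 6.75 and 6.63 in P2 and 6.75, 6.39 and 6.71 in P3, in the same order, and macrophage markers 6.49, 6.85 and 6.88 and 6.87, 6.28 and 6.75. In each of these lists P2 1 was lowest in P2, and P3 1 was highest and P3 2 lowest in P3, so the order of the rats was not particular to endothelial genes. Other lists did not share all of it. Adipocyte markers averaged 7.33, 6.97 and 6.95 in P2, highest in P2 1, and 6.24, 6.20 and 6.39 in P3, highest in P3 3. Muscle fibre markers and those of platelets and blood cells were lowest in P2 3 within P2, but kept the order of P3 1 and P3 2. The part of any of these marker levels in the spread of the members was not tested.

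**Figure D4:**
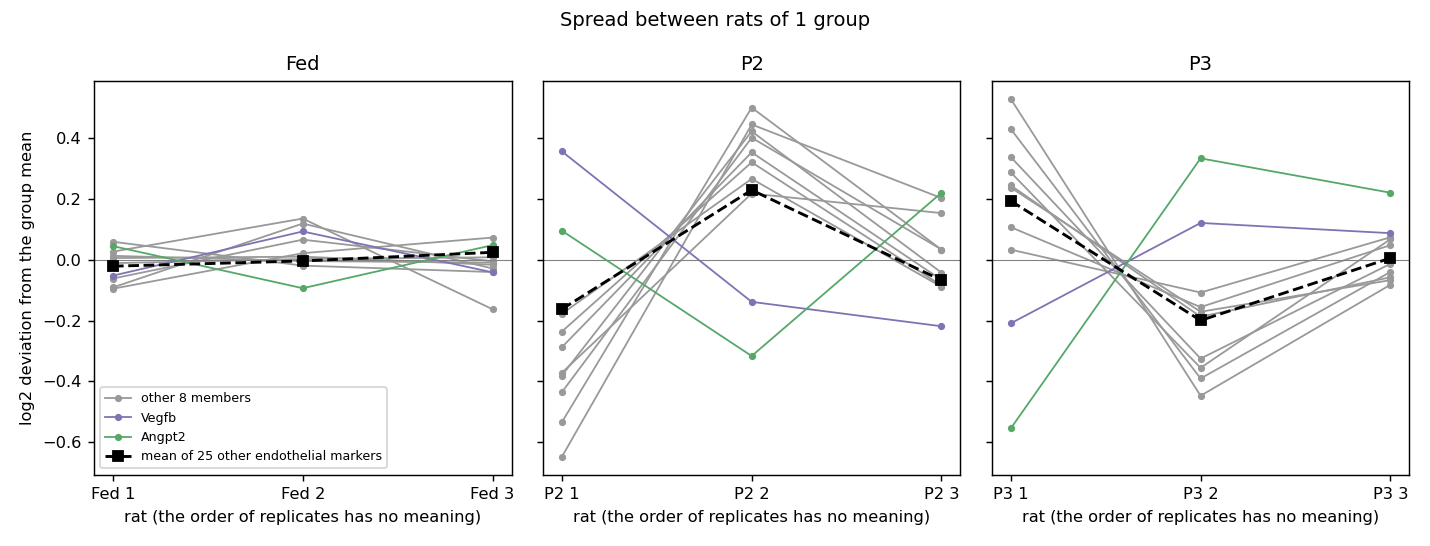
Log2 deviation of each rat from its group mean for the 10 members (grey, with Vegfb and Angpt2 coloured) and for the mean of 25 other endothelial markers (dashed), by group. Fed rats stay within 0.2 of their mean, while the grey and dashed points all lie below 0 in P2 1 and P3 2 and above 0 in P2 2 and P3 1, with Vegfb and Angpt2 on the opposite side.

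Because of this shared spread, the 7 members expressed by endothelium were also taken in each rat relative to the mean of the 25 markers. The comparison was added after the data were seen. It does not separate endothelium from the other cells whose markers followed the same order. Angpt2 is among the 7 although it ran the other way, and scaling widened its spread. Its SD went from 0.28 to 0.47 in P2 and from 0.48 to 0.67 in P3. Relative Kdr was 1.54, 1.64 and 1.67 in Fed, 0.24, 0.89 and 0.72 in P2, and 1.34, 1.07 and 1.18 in P3. Scaled in this way, Kdr was lower without overlap in both phases, with differences from Fed of -1.001 in P2 and -0.42 in P3, and the P3 rats lay above the P2 rats. Relative Pecam1 was 1.55, 1.74 and 1.57 in Fed, 1.95, 2.01 and 1.95 in P2, and 2.63, 2.38 and 2.60 in P3, with no overlap between any groups and differences from Fed of 0.35 and 0.92. Flt1 stood 0.61 higher, Tek 0.43 higher and Angpt2 0.87 higher in P3 than in Fed, and Cdh5 differed by -0.14, all without overlap. Nos3 differed by -0.24 in P2 without overlap and overlapped with Fed in P3. In P2 versus Fed the other 4, Flt1, Tek, Cdh5 and Angpt2, overlapped. Each separated difference had an exact permutation p of 0.1, the smallest possible, and of 0.161 after adjustment over the 21 differences, so none could pass. The share of all genes that separate under this scaling was not computed. Unscaled, 24.2% of all probe sets did so in P2 versus Fed, 42.4% in P3 versus Fed and 27.4% in P3 versus P2.

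As a group, the 25 other endothelial markers showed no common direction. In P2 versus Fed 4 rose and 2 fell (median 0.21), in P3 versus Fed 3 rose and 4 fell (median 0.03), and in P3 versus P2 none rose and 4 fell (median -0.16). S1pr1, the receptor for sphingosine 1-phosphate that steadies junctions, rose by 1.07 ± 0.23 in P2 (adjusted p = 0.0236) and by 0.98 ± 0.23 in P3 (adjusted p = 0.0117). Sox17, a transcription factor of arterial endothelium, rose by 1.04 ± 0.24 in P3 (adjusted p = 0.00988), and Ramp2, a partner of the adrenomedullin receptor, rose by 0.67 ± 0.17 in P2 (adjusted p = 0.0393). Cd34, a sialomucin of endothelium that fibro-adipogenic and satellite cells also carry, fell by 0.67 ± 0.17 in P2 (adjusted p = 0.0421) and fell by 1.58 ± 0.17 in P3 (adjusted p = 0.000116). Cd93 fell by 0.83 ± 0.20 in P2 (adjusted p = 0.0334) and fell by 1.06 ± 0.20 in P3 (adjusted p = 0.00328). Erg and Emcn, both characteristic of endothelium, were at 0.33 ± 0.13 and -0.11 ± 0.18 in P3 (adjusted p = 0.0837 and 0.703).

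Genes that endothelium uses to handle lipids included a called change in each direction. Of 6 measured, 2 rose and 1 fell in P2 (median 0.28), 1 rose and 2 fell in P3 (median -0.15), and 1 rose and 1 fell in P3 versus P2 (median -0.21). Cd36, a fatty acid translocase of endothelium and muscle fibres, rose by 0.91 ± 0.14 in P2 (adjusted p = 0.00567) and by 1.47 ± 0.14 in P3 (adjusted p = 6.89e-05). Fabp4, a fatty acid binding protein of capillaries and fat cells, rose by 0.69 ± 0.13 in P2 (adjusted p = 0.0126) and fell by 0.46 ± 0.13 in P3 (adjusted p = 0.0287). Adipocyte markers also moved: of 9, Fabp4 included, 4 rose and none fell in P2, none rose and 2 fell in P3, and none rose and 4 fell in P3 versus P2, with medians of 0.69, -0.07 and -0.84. Their mean log2 level was 6.31 to 6.39 in Fed, 6.95 to 7.33 in P2 and 6.20 to 6.39 in P3, and their part in the Fabp4 change was not tested. Lipg, endothelial lipase, fell in P2 and P3, with log2 changes of -0.44 ± 0.10 and -0.60 ± 0.10 (adjusted p = 0.0316 and 0.00208), but its group means of 5.18, 4.74 and 4.58 lay below every array median, where a probe set may be near background. Gpihbp1, which anchors lipoprotein lipase to capillaries, was at 0.60 ± 0.19 and 0.34 ± 0.19 (adjusted p = 0.0984 and 0.239).

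Around Nos3, of 11 genes of nitric oxide and endothelin signalling, 1 rose and none fell in P2 (median -0.01), 3 rose and 3 fell in P3 (median -0.06), and 2 rose and 1 fell in P3 versus P2 (median 0.03). Ece1, which activates the vasoconstrictor endothelin 1, rose by 0.68 ± 0.09 in P2 (adjusted p = 0.00211) and by 1.29 ± 0.09 in P3 (adjusted p = 7.90e-06). Edn1, the precursor of endothelin 1, rose by 0.65 ± 0.17 in P3 (adjusted p = 0.0199), with group means of 5.01, 5.18 and 5.66 that all lay below the array medians. Nos1, the synthase of muscle fibres, rose by 1.25 ± 0.23 (adjusted p = 0.00253), and Prkg1, the cGMP-dependent kinase of smooth muscle, fell by 0.73 ± 0.19 (adjusted p = 0.0191). Cav1, the caveolin that binds endothelial nitric oxide synthase, was at -0.06 ± 0.22 in P3 (adjusted p = 0.864), and Nos2 at -0.13 ± 0.11 (adjusted p = 0.412).

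Notch signalling selects the leading cell of a sprout. Of 9 genes, none rose and 1 fell in P2 (median -0.03), 2 rose and 2 fell in P3 (median 0.16), and none rose and 1 fell in P3 versus P2 (median 0.15). Jag2, a Notch ligand, fell by 0.44 ± 0.08 in P2 (adjusted p = 0.0112) and fell by 0.84 ± 0.08 in P3 (adjusted p = 5.86e-05). The receptors Notch4 and Notch1 rose by 0.48 ± 0.15 and 0.40 ± 0.13 in P3 (adjusted p = 0.0377 and 0.0439). The ligand Dll1 fell by 0.46 ± 0.14 in P3 (adjusted p = 0.0314), and Dll4, a ligand induced by VEGF-A, was at 0.34 ± 0.21 (adjusted p = 0.290).

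Of 7 genes listed as inhibitors of angiogenesis, 2 rose and 1 fell in P2 (median 0.08), 2 rose and 2 fell in P3 (median -0.02), and 1 rose and 1 fell in P3 versus P2 (median -0.11). Adamts1, a protease that can bind VEGF-A, rose by 0.70 ± 0.09 in P2 (adjusted p = 0.00184) and by 2.07 ± 0.09 in P3 (adjusted p = 6.74e-07). Timp3, a matrix protease inhibitor that blocks VEGFR2, rose by 1.01 ± 0.15 and 1.06 ± 0.15 (adjusted p = 0.00365 and 0.000574). Vash2, a vasohibin that stands in the list although it is known mainly to promote angiogenesis, fell by 1.12 ± 0.14 in P2 (adjusted p = 0.00176) and fell by 1.42 ± 0.14 in P3 (adjusted p = 6.68e-05). It was the 1 gene of the list that fell in P2. Serpinf1, the pigment epithelium-derived factor made by fibroblasts, fell by 2.31 ± 0.21 in P3 (adjusted p = 3.77e-05). Thbs1, thrombospondin 1, was at 0.30 ± 0.15 in P3 (adjusted p = 0.190).

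Markers of pericytes and smooth muscle, cells that express Angpt1, were lower in P3. Of 11, none rose and 3 fell in P2 (median -0.28), none rose and 8 fell in P3 (median -0.69), and none rose and 4 fell in P3 versus P2 (median -0.31). The falls against Fed include Mcam and Pdgfb in both phases, genes that are not particular to these cells because endothelium expresses them too. Mcam, an adhesion protein of pericytes and endothelium, fell by 0.70 ± 0.11 in P2 (adjusted p = 0.00507) and fell by 1.43 ± 0.11 in P3 (adjusted p = 1.44e-05). Rgs5, a pericyte signalling regulator, fell by 1.01 ± 0.16 in P3 (adjusted p = 0.00102). The potassium channel subunit Abcc9 fell by 0.91 ± 0.13 in P3 (adjusted p = 0.000739), and whole muscle does not show from which cells its signal came. Notch3, the Notch receptor of these cells, fell by 0.81 ± 0.14 in P3 (adjusted p = 0.00167). In P2, the channel subunit Kcnj8 fell by 0.55 ± 0.12 (adjusted p = 0.0193), and Pdgfb, the endothelial ligand that recruits pericytes, fell by 0.43 ± 0.10 (adjusted p = 0.0331). Pdgfrb, the receptor that holds pericytes to vessels, was at 0.06 ± 0.18 (adjusted p = 0.839), and Myh11 at -0.01 ± 0.22 (adjusted p = 0.979). The mean log2 level of the list was 8.90 to 9.08 in Fed, 8.56 to 8.87 in P2 and 8.14 to 8.50 in P3.

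Fibro-adipogenic markers, of cells that also make Angpt1, were also lower in P3. Of 11, none rose and 2 fell in P2 (median -0.44), none rose and 9 fell in P3 (median -1.08), and none rose and 8 fell in P3 versus P2 (median -0.89). Collagen genes such as Col1a1 (-4.18 ± 0.57 in P3, adjusted p = 0.000487) had the largest changes in P3, whereas the defining receptor Pdgfra was at -0.39 ± 0.29 (adjusted p = 0.377). The mean log2 level of the whole list ranged from 9.40 to 9.60 in Fed and from 7.33 to 8.19 in P3. The part of either list in the fall of Angpt1 was not tested.

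Lymphatic markers gave 1 rise and 1 fall among 5 in P3 and no call in P2 versus Fed or P3 versus P2, with medians of -0.30, -0.01 and -0.14. Lyve1, a hyaluronan receptor that macrophages also carry, rose by 1.10 ± 0.16 in P3 (adjusted p = 0.000816), while Prox1, the defining factor of lymphatic endothelium that muscle fibres also express, fell by 0.31 ± 0.10 (adjusted p = 0.0421) at group means of 5.22 to 5.53, below the array medians. The mean log2 level of the whole list was 6.50 to 6.60 in Fed and 6.39 to 6.75 in P3. Of 11 muscle fibre markers, none rose in any comparison, 2 fell in P2, 4 in P3 and 3 in P3 versus P2, with medians of -0.05, -0.19 and -0.08.

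**Figure D5:**
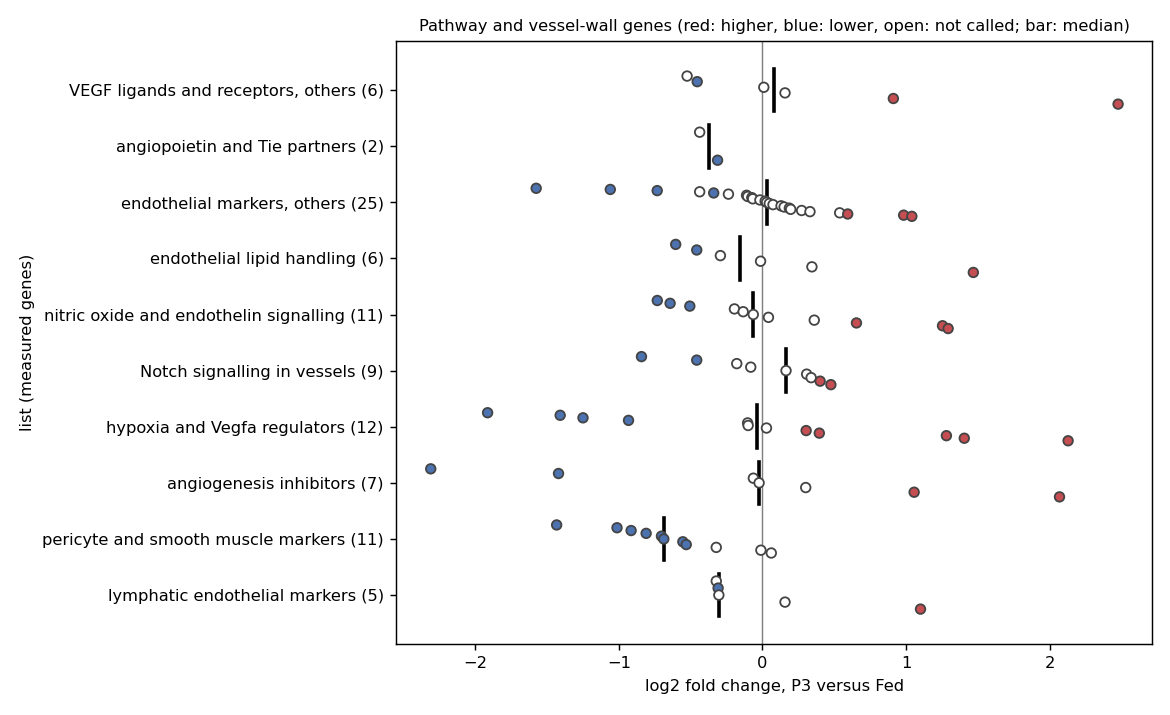
Log2 fold change in P3 versus Fed of the measured genes of 10 lists around the members, which are left out. Red points rose, blue points fell, open points did not pass, and the bar is the list median. Pericyte and smooth muscle markers have no red point and a median of -0.69, and the other endothelial markers centre on 0.03.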

How the data were processed

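Total RNA of TIB from 9 rats was labelled with the Affymetrix whole transcript kits and read on 1 array each, without technical replicates. The authors made the deposited log2 intensities with RMA (GCOS, Expression Console 1.1), which equalizes the distributions of the arrays, so shifts shared by most genes are not visible. The values were used as deposited.

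Groups come from the sample titles. Group means were fitted with limma 3.58.1 in R 4.3.3 (lmFit, eBayes, 2.87 prior degrees of freedom) to all 29215 probe sets, of which 15310 carry 1 symbol, 323 several and 13582 none. P-values were adjusted by Benjamini-Hochberg. Confidence intervals are at 95% and not adjusted. Differences within a rat were tested by exact two-sided permutation. Precision is limited by 3 arrays per group. The fit was tested on simulated data. Figures used matplotlib 3.10.9 in Python 3.11.15.

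The members and the 15 lists were chosen with earlier results of these data known. From each list, counts, the median, up to 4 called genes with the largest change in P3 and in P2 versus Fed, and up to 2 uncalled genes are named, and a gene may stand in more than 1 list. All 10 members matched the RefSeq table by symbol and Entrez gene ID. Alternatives tried were a further quantile normalization, median subtraction, filters on low values or on symbols, moderation with a trend, weighted arrays, fits to 2 groups, a block of replicate numbers, other thresholds, the ANOVA with Tukey test of the study's methods, averaged probe sets, and each array left out in turn.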

Additional observations from a re-analysis of the deposited data

How the results depend on the processing

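P3 versus Fed gave 5 called members, and 4 to 6 when each array was left out in turn. This count was 3 with the ANOVA of the study's methods adjusted and its Tukey test at 0.05, and 1, Vegfa, with both at 0.001. Of P2 versus Fed, the 2 calls became 4 with only the probe sets that carry 1 symbol and 5 with array weights. They became 0 with only the groups compared, at an adjusted p under 0.01, and with the ANOVA and Tukey test at 0.001, and ranged from 0 to 3 with an array left out. For P3 versus P2 the count was 2 with 1-symbol probe sets or array weights, and 1 to 2 with an array left out. Replicate numbers do not pair the rats: deviations of same-numbered arrays correlated between -0.24 and 0.12. With a replicate block, 0 members were called in P2 versus Fed, with adjusted p of 0.0705 for Vegfa and 0.0701 for Angpt1. Directions turned only for genes that were not called: Nos3 in P3 versus Fed was -0.0084 after a further quantile normalization. With an array left out, Nos3 ranged from -0.22 to 0.10 in P2 versus Fed and from -0.0178 to 0.30 in P3 versus P2, Cdh5 from -0.0919 to 0.19 in P2 versus Fed, and Tek from -0.48 to 0.0651 in P3 versus P2, and Vegfa minus Vegfb from -0.57 to 0.0978 in P2 versus Fed. The other results per alternative cover the genes and the ligand differences within a rat. Of these, 648 kept their direction and place, 17 came to pass the threshold and 30 no longer passed. A gene kept its place by staying on its side of the threshold. A ligand difference, which has none, did so by shifting less than the larger group SD. The cause of these differences between settings was not tested.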

Other observations

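Genes that followed the same course over the 9 rats were looked up for 3 members, as a description over 8178 genes with a mean log2 of at least 6. All points share the 3 groups, so any gene with a similar step between them ranks high. Closest to Vegfa were P2ry1, an ADP receptor (Pearson's r = 0.996), Sema6d, a semaphorin (0.993), and Acss2, a cytosolic acetyl-CoA synthetase (0.993). P2ry1 averaged 9.29 in Fed, 8.46 in P2 and 6.14 in P3. Closest to Kdr were Cgnl1, a junction protein (0.954), Nrp1, the co-receptor of VEGFR2 (0.950), and Phactr2 (0.939). Nrp1 averaged 9.08 in Fed, 8.48 in P2 and 8.56 in P3, and like Kdr was lowest on average in P2. Closest to Pecam1 were Lmbr1l (0.991), Myrip (0.989) and Mecom, a transcription factor gene (0.988), with Mecom at 7.05, 7.46 and 7.78 in Fed, P2 and P3.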
